A study of Mus musculus with 6 samples.

Results

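The subunits of the oxidative phosphorylation machinery were examined in mouse liver 2 h after CBZ. Genes were taken by name. The names were Ndufa, Ndufb, Ndufc, Ndufs or Ndufv followed by a number, and Sdha to Sdhd. Names that start with Uqcr, Cox4 to Cox8 or Atp5, and Cyc1 and Cycs, were also taken. Genes were kept where a probe was well above background on all 6 arrays. This gave 82 genes out of 17057 tested: 37 of complex I, 4 of complex II, 9 of complex III, 15 of complex IV, 16 of complex V and cytochrome c. None of the 82 genes passed the test between CBZ and DMSO, against 0.0469% of all genes called higher and 0.00586% called lower. With signals scaled to the 75th percentile of each array, no subunit gene set the 3 CBZ mice apart from the 3 DMSO mice. Of all genes, 6.27% had the CBZ mice above and 6.65% below. Under 7 other ways of scaling or background correction, 0 to 12 subunit genes did so. The shares of all genes there were 1.97% to 8.89% above and 3.56% to 9.39% below. The point estimates were small, with a median log2 fold change of -0.067 against -0.0044 for all genes tested, and 76 of 82 were below 0 (52 to 80 under the others) against 50.9% of all genes. Without the mouse CBZ 3 the median was -0.0068 with 46 of 82 below 0. Among 863 genes with a mean signal between the lower and upper quartile of that of the subunits, called genes of similar signal below, the median was -0.022 with 57.7% below 0.

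Oxidative phosphorylation makes most of the ATP of a hepatocyte in the inner membrane of the mitochondrion. Complexes I and II pass electrons from NADH and succinate to ubiquinone, complex III passes them on to cytochrome c, and complex IV hands them to oxygen. The proton gradient built by complexes I, III and IV drives complex V, the ATP synthase. Nearly all subunits are encoded in the nucleus, while a few of the membrane-embedded core subunits are encoded by mitochondrial DNA. In liver these complexes serve fatty acid oxidation, gluconeogenesis and urea synthesis. Nuclear subunit genes are known to share regulators such as NRF1, the ETS factor GABP, the ERR receptors and YY1.

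The 2 groups were C57BL6/J mice, an inbred strain, dosed by mouth with CBZ at 250 mg/kg or with the solvent DMSO; the labels give the compound under this abbreviation alone. Each group had 3 mice, and the whole liver of each was profiled on 1 Agilent array with 1 colour; the age and sex of the mice are not given in the sources used here. All arrays lay on 1 slide, with the 3 DMSO arrays and CBZ 1 in row 1 and CBZ 2 and CBZ 3 in row 2. On each array 42.6% to 45.8% of spots exceeded background clearly and none was saturated, and with 3 arrays per group precision is limited by their number. Hepatocyte markers (Alb, Apoa1, Ttr and others, 9 measured) had a summed log2 level of 12.8 to 13.0 in every mouse, while 5 of 10 striated muscle markers (Ckm, Myh4, Myl1, Mb and Cox8b) and 3 of 4 brown fat markers (Ucp1, Cidea and Adipoq) were below background on all arrays. The muscle markers Cox7a1 and Atp2a1 were measured, at log2 fold changes of 0.082 ± 0.18 and 0.0048 ± 0.17. The summed Kupffer cell markers (12 genes) were at 8.35 in DMSO 1 and 7.21 to 7.88 in the other mice. Those of stellate cells and fibroblasts (10 genes, 9 higher in CBZ, median 0.25, none called) were at 8.46 in CBZ 2 and 7.80 to 8.13 in the other mice. Their part in the results was not tested. In whole liver, fewer cells of a type and less RNA per cell cannot be told apart. As a check on the treatment, Gadd45b, a stress-inducible gene, had a scaled signal (processed intensity divided by the 75th percentile of that array) of 2.62, 2.49 and 2.80 in DMSO mice and 15.9, 18.8 and 28.1 in CBZ mice, and rose by a log2 fold change of 2.95 ± 0.20 (SE, adjusted p = 0.0056, limma with Benjamini-Hochberg adjustment). It was 1 of 2 called among 5 drug-response controls, against 0.0469% of all genes called higher. In all 5 controls the CBZ mice lay above the DMSO mice, against 6.27% of all genes. This list was chosen with earlier results of these data known, so the check is not an independent one. Cyp2c55 had an adjusted p of 0.033, Cyp2b9 of 0.065, Cyp2b10 of 0.066 and Alas1 of 0.172 (limma).

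Many promoters of these genes hold short cores of the sites known for the shared regulators. Promoter windows of 300 bases (250 before to 50 after the start) were taken from RefSeq, build GRCm38.p6, for 67 of the 82 genes, 73 windows in all. On either strand, 19.2% of them held the NRF1 core CATGCGC, against 3.91% of all 32851 promoters of the table and 6.08% of the promoters of genes tested here. The ETS core CCGGAAG was in 21.9% of the windows against 8.86% and 15.6%, the ERR core AAGGTCA in 11.0% against 4.72% and 3.78%, and the YY1 core AAGATGG in 17.8% against 6.34% and 6.89%. At least 1 of the 4 cores was in 53.4% of the windows, against 21.6% of all promoters and 28.6% of those of genes tested here. The ETS core can overlap the ERR or YY1 core by its last bases, and a match is a description of letters, not a bound site.

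To show such a promoter for each complex and for cytochrome c, the 120 bases before the start are printed 5′ to 3′ on the strand of the gene, with the core in capitals. Ndufa11 and Atp5g2 hold 2 NRF1 cores that overlap on opposite strands, Sdhb and Cycs hold 1 NRF1 core, Cox5b holds 1 NRF1 core on the opposite strand, and Uqcrh holds 1 ETS core on the opposite strand. The windows are chr17:56717642-56717761 (+) for Ndufa11, chr4:140961151-140961270 (+) for Sdhb, chr4:116075071-116075190 (-) for Uqcrh, chr6:50566570-50566689 (-) for Cycs, chr1:36691367-36691486 (+) for Cox5b and chr15:102671048-102671167 (-) for Atp5g2.
Ndufa11: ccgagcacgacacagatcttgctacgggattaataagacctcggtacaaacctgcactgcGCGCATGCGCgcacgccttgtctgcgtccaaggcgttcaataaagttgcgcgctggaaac
Sdhb: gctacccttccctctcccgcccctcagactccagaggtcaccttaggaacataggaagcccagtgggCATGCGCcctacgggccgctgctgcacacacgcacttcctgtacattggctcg
Uqcrh: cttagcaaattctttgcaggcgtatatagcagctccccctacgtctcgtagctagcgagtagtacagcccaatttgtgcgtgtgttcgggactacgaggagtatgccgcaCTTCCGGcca
Cycs: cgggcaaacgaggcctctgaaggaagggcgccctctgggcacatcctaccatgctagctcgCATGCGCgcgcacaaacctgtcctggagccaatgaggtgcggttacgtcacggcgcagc
Cox5b: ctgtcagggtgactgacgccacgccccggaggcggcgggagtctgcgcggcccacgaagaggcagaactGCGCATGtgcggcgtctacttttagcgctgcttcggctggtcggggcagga
Atp5g2: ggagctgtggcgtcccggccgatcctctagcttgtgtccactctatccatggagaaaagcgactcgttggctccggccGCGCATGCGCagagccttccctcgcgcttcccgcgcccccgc
These promoters were chosen for their cores. Their genes had log2 fold changes of -0.090 ± 0.12 (Ndufa11), -0.13 ± 0.13 (Sdhb), -0.054 ± 0.14 (Uqcrh), -0.088 ± 0.12 (Cycs), -0.14 ± 0.14 (Cox5b) and -0.0096 ± 0.13 (Atp5g2), each ± SE, and none passed the test. The value of Cox5b is from its brightest probe, which the array design places on chromosome 15, while the promoter printed is on chromosome 1. The probe of Cox5b placed on chromosome 1 had -0.0077 ± 0.15.

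The question of the comparison was whether CBZ changed the level of subunit mRNAs, complex by complex. With limma and Benjamini-Hochberg adjustment over all probes, 0 of 82 genes were called, while 8 of all genes tested rose (0.0469%) and 1 fell (0.00586%). The smallest adjusted p among the subunits was 0.728 (Ndufa4l2, limma). At an unadjusted p under 0.05, again 0 of 82 genes passed, against a background of 8.97% of all genes and 2.90% of genes of similar signal. All 3 CBZ values lay above all 3 DMSO values in 0 subunit genes and below them in 0, against 6.27% and 6.65% of all genes, and against 27 and 29 of the 863 genes of similar signal. The median SD of a subunit gene over the 6 mice was 0.116 on the log2 scale, against 0.123 for genes of similar signal and 0.195 for all genes tested.

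The sizes that these data leave possible are modest for most subunits. Over all 82 genes the estimates ran from -10.6% (Cox6b2) to 18.2% (Ndufa4l2), with 95% confidence intervals between -35.5% and 48.7%. The isoforms Cox4i2, Cox6b2 and Cox7a1, the paralogue Ndufa4l2 and 2 genes that only share a name with subunits were then left aside. The estimates of the other 76 genes ran from -9.41% (Ndufb2) to 3.97% (Atp5o), and their 95% confidence intervals lay between -28.7% and 34.0%. The median over all 82 genes corresponds to -4.52%, and that over all genes tested to -0.30%. By complex, the median log2 fold change was -0.076 for complex I, -0.053 for complex II, -0.054 for complex III, -0.064 for complex IV and -0.038 for complex V. Differences between complexes were not tested.

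**Figure D1:**
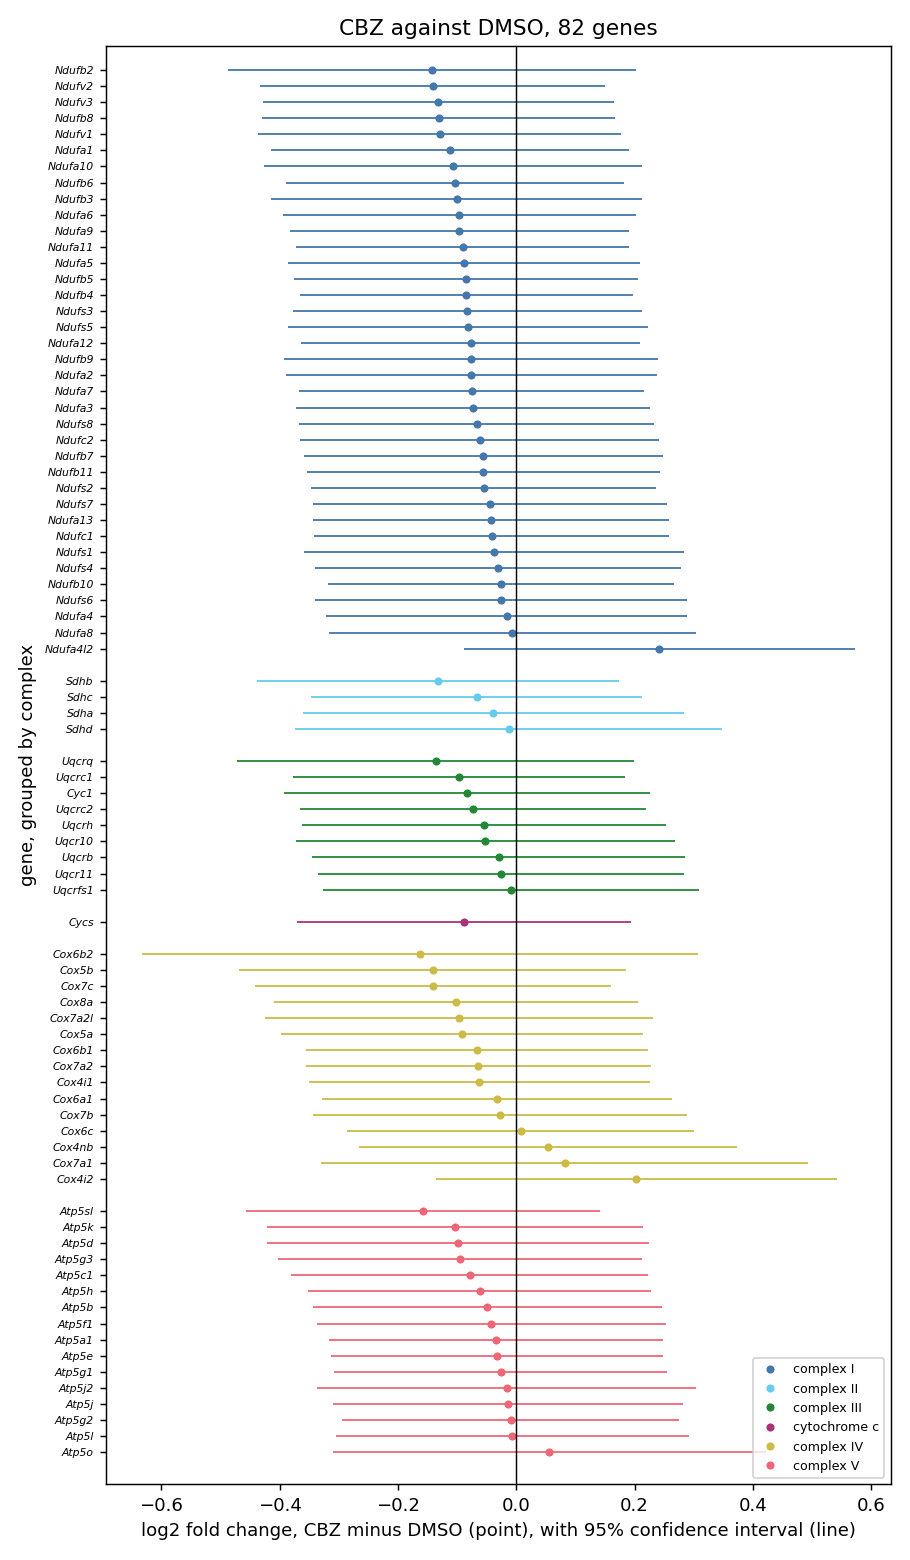
Log2 fold change (CBZ minus DMSO, x axis) of 82 genes, grouped and coloured by complex and ordered by estimate, with points for the estimate and lines for its 95% confidence interval from limma (3 mice per group). Every interval crosses 0, and 76 of 82 points lie left of it.

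Complex I, which oxidises NADH, had 37 measured genes, of which 36 had an estimate below 0. Values are given below for DMSO 1, 2 and 3 and then for CBZ 1, 2 and 3. The core subunit Ndufv1 binds the flavin that takes electrons from NADH. Its scaled signal was 200, 193 and 173 in DMSO mice and 165, 193 and 161 in CBZ mice. CBZ 2 lay within the DMSO range and the other CBZ mice below it, and the log2 fold change was -0.13 ± 0.13 (SE). Ndufv2, its iron-sulfur partner, was at 73.0, 76.7 and 70.4 in DMSO mice and at 64.6, 73.4 and 62.0 in CBZ mice, again with CBZ 2 inside the DMSO range (-0.14 ± 0.13). Ndufs1, the largest iron-sulfur subunit, was at 105, 93.7 and 83.6 against 90.1, 100 and 84.3, so that the CBZ mice lay wholly within the DMSO range (-0.038 ± 0.14).

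The lowest estimate of complex I was that of Ndufb2, an accessory subunit of the membrane arm. Its scaled signal was 104, 94.5 and 87.9 in DMSO mice and 88.9, 98.6 and 73.4 in CBZ mice, with a log2 fold change of -0.14 ± 0.15. On this probe the groups overlapped, since CBZ 1 and CBZ 2 both exceeded DMSO 3. The dimmer probe of Ndufb2 was at log2 levels of 3.69, 3.92 and 3.71 in DMSO mice and 3.56, 3.42 and 3.67 in CBZ mice, all CBZ mice below (-0.22 ± 0.13, adjusted p = 0.732, limma). Ndufa8, another accessory subunit, was nearest to 0 below it (-0.0067 ± 0.14), at 4.92, 4.14 and 4.66 in DMSO mice and 4.90, 4.65 and 4.11 in CBZ mice. Ndufa4, named for complex I but since assigned to complex IV, had -0.016 ± 0.13, and moving it left the medians of complexes I and IV at -0.077 and -0.063.

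The single complex I name with an estimate above 0 was Ndufa4l2, a paralogue of Ndufa4 known to be induced by hypoxia. Its scaled signal was 1.38, 1.18 and 1.36 in DMSO mice and 1.61, 1.70 and 1.33 in CBZ mice. CBZ 3 lay inside the DMSO range and CBZ 1 and CBZ 2 above it, and the log2 fold change was 0.24 ± 0.15 (95% interval -0.089 to 0.57, adjusted p = 0.728, limma).

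Ndufv3, an accessory subunit of the NADH-oxidising module, had 3 probes, and they differed more than those of any other of the 28 genes with several probes. All 3 are placed by the array design on chromosome 17 of mm9. The brightest, from chr17:31668209-31668268, had a log2 fold change of -0.13 ± 0.13, the one from chr17:31665148-31665207 had -0.18 ± 0.12 with all CBZ mice below the DMSO mice, and the one from chr17:31663758-31663817 had 0.073 ± 0.15. Their mean log2 levels were 7.98, 1.56 and 0.22 in this order, so the last 2 were far dimmer. The highest and lowest of the 3 estimates, both from these dim probes, differed by 0.26, and each interval covered 0. Over the 28 genes the probes of a gene differed by a median of 0.063, and by under 0.1 in 21 genes. Over all 118 member probes none was called, against 0.0469% of all genes called higher and 0.00586% called lower. These probes of Ndufb2 and Ndufv3 were the 2 of 118 whose groups did not overlap, both with the CBZ mice below. Of all genes, read by brightest probe, 6.27% had the CBZ mice above and 6.65% below.

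Complex II, succinate dehydrogenase, is shared with the TCA cycle and has no subunit from mitochondrial DNA. Sdhb, its iron-sulfur subunit, was at 289, 273 and 262 in DMSO mice and at 245, 282 and 227 in CBZ mice. CBZ 2 lay between the 2 highest DMSO mice and the other CBZ mice below all of them (-0.13 ± 0.13). The flavoprotein Sdha was at 64.3, 62.8 and 50.9 against 56.0, 61.7 and 54.9, all CBZ mice inside the DMSO range (-0.039 ± 0.14). Both membrane anchors, Sdhc and Sdhd, had estimates of -0.067 ± 0.12 and -0.013 ± 0.16. In each of the 4 genes DMSO 1 was the highest mouse, which held for 21 of all 82 genes.

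Complex III, the cytochrome bc1 complex, had 9 genes, all with estimates below 0. Uqcrc1, a core protein, was at 60.8, 62.7 and 58.9 in DMSO mice and at 56.0, 61.2 and 53.6 in CBZ mice (-0.096 ± 0.12). Cyc1, which carries the haem of cytochrome c1, was at 228, 207 and 183 against 195, 204 and 183 (-0.083 ± 0.14). Uqcrfs1, the Rieske iron-sulfur protein, was at 68.5, 65.7 and 55.4 against 59.4, 68.6 and 60.0 (-0.0087 ± 0.14). The CBZ mice overlapped the DMSO mice in each.

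The small subunit Uqcrq had the lowest estimate of complex III and the second widest gap between its probes. Its brightest probe gave 388, 393 and 383 in DMSO mice and 331, 424 and 313 in CBZ mice (-0.14 ± 0.15), so that the CBZ mice spanned the DMSO range on both sides. The other probe of Uqcrq, at a mean log2 level of 3.04 against 8.53 for the brightest, had an estimate of 0.097. Uqcrb and Uqcr11, also small subunits, had -0.030 ± 0.14 and -0.026 ± 0.14, and the 3 probes of Uqcrb ran from -0.12 to 0.030. The probe of Uqcrc2, a core protein, was printed 10 times on each array, with an SD within an array of 0.016 to 0.034 on the log2 scale. Cytochrome c itself (Cycs), the soluble carrier to complex IV, was at 124, 114 and 112 in DMSO mice and 113, 114 and 102 in CBZ mice (-0.088 ± 0.12).

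Complex IV, cytochrome c oxidase, had 15 matching names with an estimate, 11 below 0 and 4 above. Cox4i1, the main form of subunit 4, was at 458, 446 and 450 in DMSO mice and at 422, 477 and 401 in CBZ mice. CBZ 2 was above and CBZ 1 and CBZ 3 below all DMSO mice (-0.062 ± 0.13). Cox6a1, the liver form of subunit 6a, showed the same order at 1055, 1023 and 987 against 979, 1112 and 915 (-0.032 ± 0.13). Cox5a, Cox7a2 and Cox8a had -0.092 ± 0.13, -0.064 ± 0.13 and -0.10 ± 0.14. By brightest probe, the lowest estimates among subunits of the liver enzyme were those of Cox5b (98.9, 96.8 and 91.7 against 80.1, 103 and 79.5) and Cox7c (158, 161 and 142 against 140, 151 and 127), both at -0.14. In Cox7c CBZ 2 lay inside the DMSO range. The second probes of both genes had estimates near 0, at -0.0077 ± 0.15 for Cox5b and 0.0036 ± 0.15 for Cox7c.

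The forms of complex IV subunits that belong to other tissues were dim. Cox4i2, the lung and hypoxia form of subunit 4, was at 0.93, 1.07 and 1.20 in DMSO mice and 1.14, 1.15 and 1.37 in CBZ mice (0.20 ± 0.15, adjusted p = 0.821, limma). Cox7a1, the heart and muscle form, was at 6.55, 5.62 and 8.86 against 7.46, 7.77 and 6.67 (0.082 ± 0.18). Cox6b2, a testis form, was at 0.69, 0.70 and 0.64 against 0.83, 0.46 and 0.59, and its estimate of -0.16 ± 0.21 had the widest interval of the 82 genes (-0.63 to 0.31). In all of them the groups overlapped. The 5 largest SDs over the 6 mice were those of Cox6b2 (0.29), Cox7a1 (0.23), Ndufa4l2 (0.19), Cox4i2 (0.19) and Atp5o (0.18).

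Cox6b2 was also the dimmest name that met the requirement, at a processed signal of 72.5 to 152 intensity units. Just outside, the muscle form Cox6a2 was at 49.9 to 68.8 units and well above background on 3 of 6 arrays. Cox7b2, Cox8b, Cox8c and Atp5s were well above background on 0 of 6 arrays and are not among the 82. Cox4nb and Atp5sl match by name but are listed in RefSeq as Emc8 and Dmac2, neither of them a subunit; their estimates were 0.054 ± 0.14 and -0.16 ± 0.13, and without them 75 of 80 estimates were below 0.

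Complex V, the ATP synthase, had 16 names, 15 with an estimate below 0. Atp5a1 and Atp5b, the alpha and beta subunits of the catalytic head, had SDs of 0.074 and 0.098 over the 6 mice. Atp5a1 was at 109, 110 and 99.2 in DMSO mice and at 103, 109 and 97.8 in CBZ mice (-0.035 ± 0.12). Atp5b was at 365, 370 and 326 against 337, 371 and 319 (-0.049 ± 0.13). In both, CBZ 1 lay inside the DMSO range and CBZ 3 just below it.

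The genes Atp5g1, Atp5g2 and Atp5g3 encode the same mature subunit c of the membrane rotor. Their log2 fold changes were -0.026 ± 0.12, -0.0096 ± 0.13 and -0.094 ± 0.14, and their intervals overlapped almost entirely. The smallest SD over the 6 mice belonged to Atp5e, the epsilon subunit (0.071, at 332, 307 and 338 against 311, 338 and 305), followed by Atp5g1 (0.072). Atp5d, the delta subunit, and Atp5k, subunit e, had -0.099 ± 0.14 and -0.10 ± 0.14, and Atp5l, subunit g, had -0.0066 ± 0.13. Atp5o, which links head and stalk, was at 5.63, 6.20 and 6.66 in DMSO mice and 7.33, 6.82 and 5.22 in CBZ mice. CBZ 1 and CBZ 2 were above and CBZ 3 below all DMSO mice, and its estimate was the 1 above 0 in the complex (0.056 ± 0.16).

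The array design places 7 of the 118 member probes, of 6 genes, on another chromosome than RefSeq gives for the gene. These include the brightest probes of Cox5b (chr15:100805467-100805526, while the gene is on chromosome 1), Atp5j2 (chr9:21897298-21897357, gene on chromosome 5) and Atp5l (chrX:35750466-35750525, gene on chromosome 9). The probes that the design places on the gene's own chromosome had log2 fold changes of -0.0077 ± 0.15 for Cox5b and -0.088 ± 0.12 for Atp5j2, and of -0.078 to -0.033 over 4 probes of Atp5l, against -0.14, -0.016 and -0.0066 for the brightest ones. Which transcript the brightest probes of these 3 genes measure was not tested.

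On the scaled values, the subunit genes shared differences between mice. The 75th percentile by which signals are divided was lowest on the array of CBZ 2 (158 units) and highest on that of CBZ 3 (191 units). Without scaling, the median deviations of CBZ 2 and CBZ 3 were -0.045 and -0.034. Relative to the 75th percentile of each array, CBZ 2 was the highest mouse in 45 of 82 genes and CBZ 3 the lowest in 63, and CBZ 2 exceeded CBZ 3 in 80, by a median of 0.26 on the log2 scale. Among genes of similar signal CBZ 2 was the highest in 45.9% (54.9% of the subunits), CBZ 3 the lowest in 41.5% (76.8%), and CBZ 2 exceeded CBZ 3 in 791 of 863. The median deviation from a gene's mean was 0.069, 0.051 and -0.015 in DMSO mice and -0.052, 0.11 and -0.15 in CBZ mice. In 43 of 82 genes (52.4%) the CBZ mice spanned the whole DMSO range, against 32.2% of genes of similar signal and 18.8% of all genes tested. The genes of similar signal had median deviations of 0.072, 0.036 and -0.073 in DMSO mice and -0.038, 0.11 and -0.099 in CBZ mice, so CBZ 2 was the highest and CBZ 3 the lowest mouse there too.

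**Figure D2:**
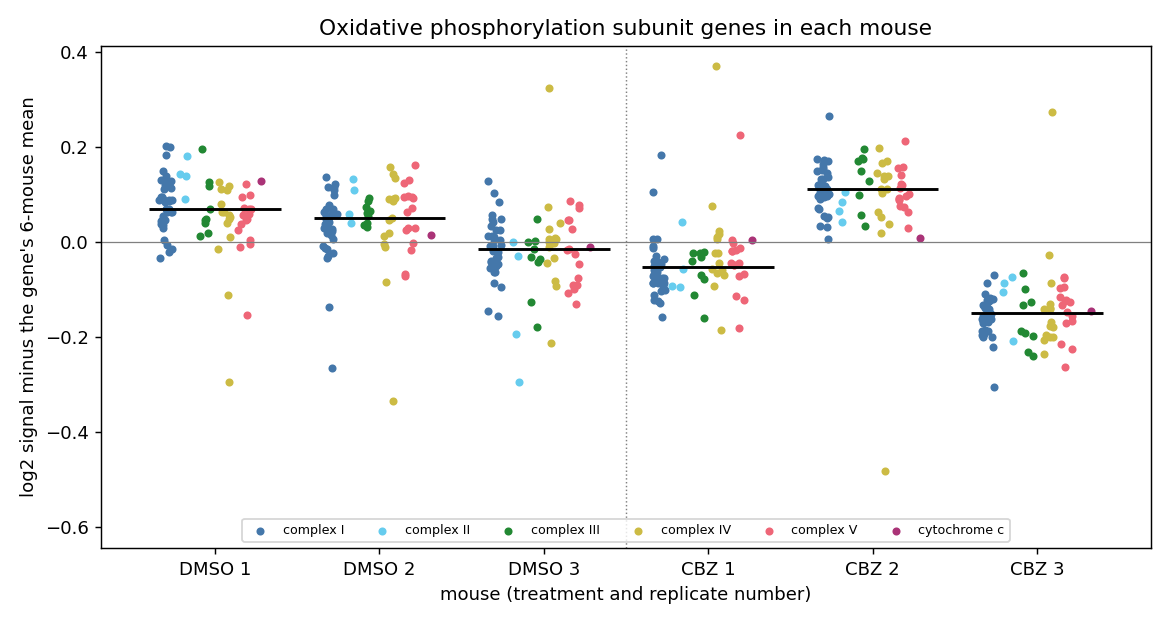
Each point is 1 of 82 genes in 1 mouse, as its scaled log2 signal minus its own mean over 6 mice (y axis), coloured by complex, and black lines are medians over the 82 genes. The median of CBZ 2 is the highest (0.11) and that of CBZ 3 the lowest (-0.15), with the DMSO mice between them.

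This order of the mice depended on how the arrays were scaled. With quantile or cyclic loess normalisation, the median deviation of CBZ 2 was 0.0040 or 0.0039 and DMSO 3 was the highest mouse (0.060 or 0.056), while CBZ 3 remained the lowest (-0.060 or -0.056). Without any scaling between arrays the medians were 0.097, 0.030 and -0.043 in DMSO mice and 0.0089, -0.045 and -0.034 in CBZ mice. The median log2 fold change of the 82 genes stayed below 0 under each scaling, at -0.038 with cyclic loess, -0.045 with quantile normalisation, -0.053 without scaling and -0.018 with the subunit median of each array subtracted, with 68, 61, 71 and 52 of 82 estimates below 0. Dividing by the array median brought the median of all genes to -0.10 and that of the subunits to -0.17, and the difference between them was -0.062, as with the 75th percentile. Leaving out CBZ 3 brought the median to -0.0068 with 46 of 82 estimates below 0, and leaving out CBZ 2 brought it to -0.13 with 77 below 0. With the slide row as a covariate, a fit that rests on CBZ 1 against the DMSO mice of the same row, the median was -0.083 with 74 below 0.

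**Figure D3:**
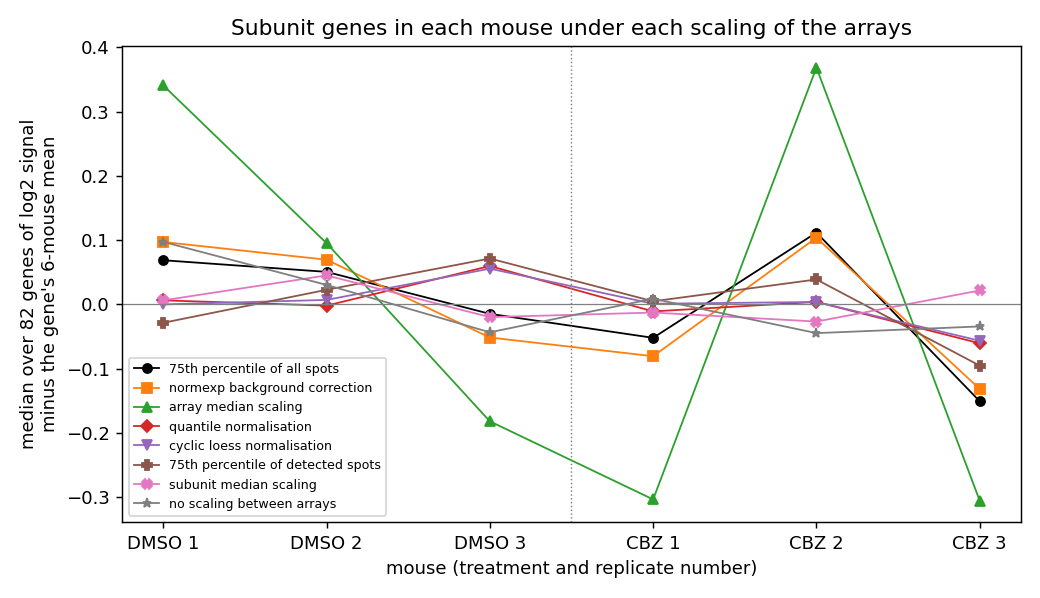
Median over 82 genes of the log2 signal minus the gene's mean over 6 mice (y axis), for each mouse (x axis) and each way of scaling the arrays (lines). The spread between mice is widest with the array median and narrowest with the scalings that align whole distributions or the subunits themselves, and the highest mouse is not the same under each.

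The count of separated genes depended on the scaling as well, although no scaling led to a called subunit. The 3 CBZ mice lay below the 3 DMSO mice in 11 of 82 genes with quantile normalisation (background 9.39%), in 12 with cyclic loess (8.64%) and in 6 with the 75th percentile of spots detected on all arrays (7.43%). Without scaling, 8 genes lay below (6.11%) and 1, Ndufa4l2, above (5.77%). Complex I, which holds 37 of the 82 genes, had 7, 8, 4 and 6 of the genes below in these 4 cases. Ndufb8, an accessory subunit of the membrane arm, was below under quantile, cyclic loess, detected-spot and no scaling, with log2 fold changes of -0.12 ± 0.084, -0.11 ± 0.083, -0.11 ± 0.090 and -0.12 ± 0.12, and adjusted p between 0.685 and 0.968 (limma).

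Ndufb8 shows what the scaling does to a single gene. Its deposited processed signal was 36252, 33473 and 31973 in DMSO mice and 31542, 31152 and 30917 in CBZ mice, which sets the groups apart by a small margin. Divided by the 75th percentile of each array, which ran from 158 to 191 units and was lowest on the array of CBZ 2, it was 202, 193 and 185 against 172, 197 and 162, and CBZ 2 lay among the DMSO mice. Sdhb behaved likewise, at 51953, 47480 and 45316 against 45135, 44610 and 43322 units before scaling.

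**Figure D4:**
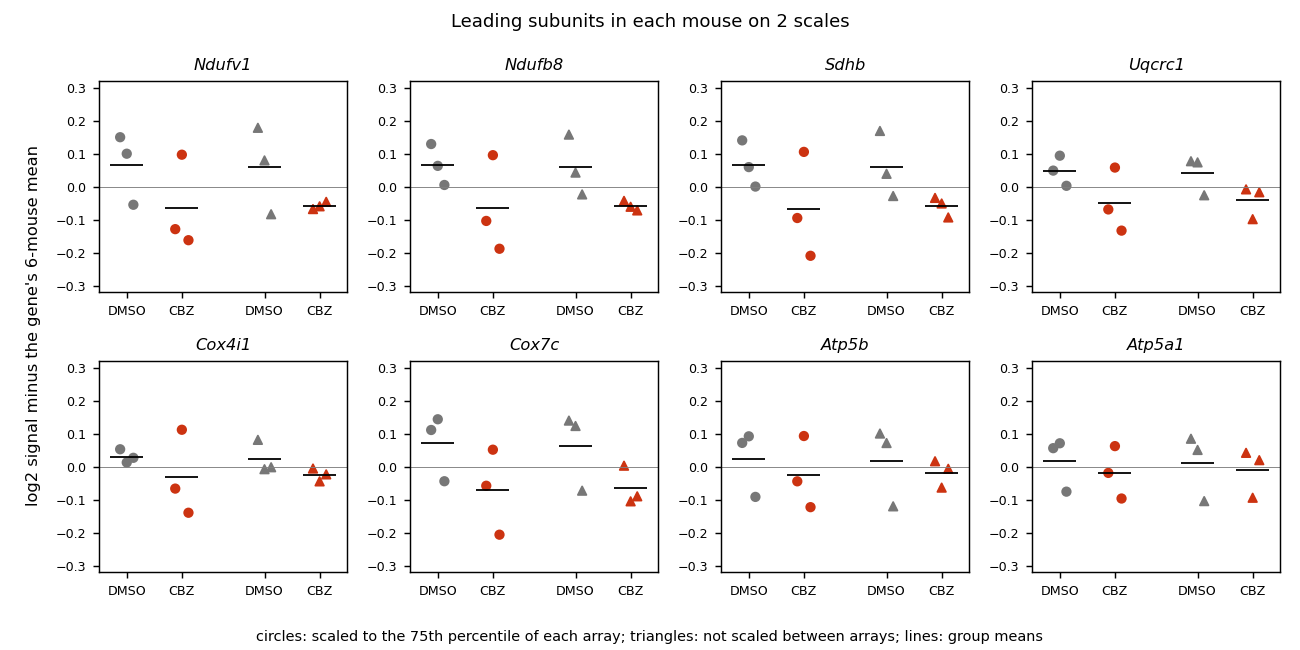
Log2 signal minus the gene's mean over 6 mice (y axis) for 8 genes picked after their values were seen, in DMSO (grey) and CBZ mice (red), with circles for values scaled to the 75th percentile, triangles for values not scaled between arrays and lines for group means. The distance between group means is similar on both scales, while CBZ 2 is the highest CBZ mouse in all 8 genes with scaling and in none without; Ndufb8 and Sdhb are apart without scaling and overlap with it.

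A scale relative to the subunits themselves was also used. With the subunit median of each array subtracted, which lowers the spread of the subunits by construction, the median SD over 6 mice was 0.062. On that scale the CBZ mice lay below the DMSO mice in 5 genes (Ndufv2, Ndufb8, Ndufa1, Sdhb and Atp5sl; background 5.04%) and above them in 2 (Ndufa4l2 and Cox6c; 8.88%). Ndufa4l2 had a log2 fold change of 0.29 ± 0.11 and Cox6c, a nuclear subunit of complex IV, of 0.056 ± 0.10, with adjusted p = 0.559 and 0.971 (limma). Ndufa4l2 was the 1 subunit gene with an unadjusted p under 0.05 there. This scaling was chosen after the data had been seen.

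The 13 subunits encoded by mitochondrial DNA are on the same arrays. None was called, 6 had an estimate above 0 and 7 below, and their median was -0.014. ND6, the subunit of complex I read from the light strand of the mitochondrial genome, was at 1.07, 1.18 and 1.28 in DMSO mice and at 1.07, 1.01 and 0.75 in CBZ mice. All CBZ values lay below those of DMSO, by a narrow margin in the case of CBZ 1 (-0.33 ± 0.17, adjusted p = 0.616, limma). This separation was kept under 1 of the 7 alternatives of scaling or background correction. Of the 13 genes, 0 were separated above and 1, ND6, below, against 6.27% and 6.65% of all genes. ND4, a membrane subunit of complex I, was at 193, 194 and 178 against 154, 190 and 158 (-0.17 ± 0.13). COX1, the catalytic subunit of complex IV, had 0.11 ± 0.19, and CYTB, the core of complex III, 0.016 ± 0.15.

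Genes that build, feed or control the complexes were read from lists, none of which held a called gene. Of 26 measured assembly factors, 18 had an estimate below 0, with a median of -0.042. The highest was Sdhaf1, needed to insert iron-sulfur clusters into Sdhb, at 11.7, 9.04 and 9.38 in DMSO mice and 11.0, 13.4 and 12.8 in CBZ mice (0.31 ± 0.15). Among 18 regulators of mitochondrial biogenesis the median was -0.0072. Ppara, the nuclear receptor for fatty acids, was at 73.2, 87.3 and 73.2 against 51.9, 63.9 and 50.9, all CBZ mice below (-0.49 ± 0.15, adjusted p = 0.33, limma). Polg2, the accessory subunit of the mitochondrial DNA polymerase, was at 3.00, 3.42 and 2.74 against 2.45, 2.39 and 1.76 (-0.49 ± 0.17).

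The TCA cycle list had 19 measured genes and a median of -0.025. Dlat, the acetyltransferase of pyruvate dehydrogenase, was at 1.89, 1.78 and 1.71 in DMSO mice and 2.40, 2.89 and 2.34 in CBZ mice (0.50 ± 0.14, adjusted p = 0.282, limma). All CBZ mice were above all DMSO mice. Of 25 carriers and coupling proteins (median -0.019), the uncoupling protein homologue Ucp2 was at 1.86, 1.74 and 1.41 against 2.37, 2.37 and 2.16, again with no overlap (0.47 ± 0.14, adjusted p = 0.34, limma). Ppara, Dlat and Ucp2 were named as the genes with the smallest unadjusted p of their lists. Each kept its groups apart under 6 of these 7 alternatives, which reuse the same 6 arrays. All CBZ mice lay above all DMSO mice in 1 regulator, 2 TCA cycle genes and 1 carrier, against 6.27% of all genes. They lay below in 3, 0 and 1, against 6.65%. The 76 mitochondrial ribosomal proteins had a median of -0.020 with 43 below 0, and the 78 cytosolic ones a median of 0.049 with 9 below 0. The CBZ mice lay above the DMSO mice in 4 mitochondrial and 4 cytosolic ribosomal protein genes and in 0 of 26 assembly factors. They lay below in 1, 0 and 0 of these.

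**Figure D5:**
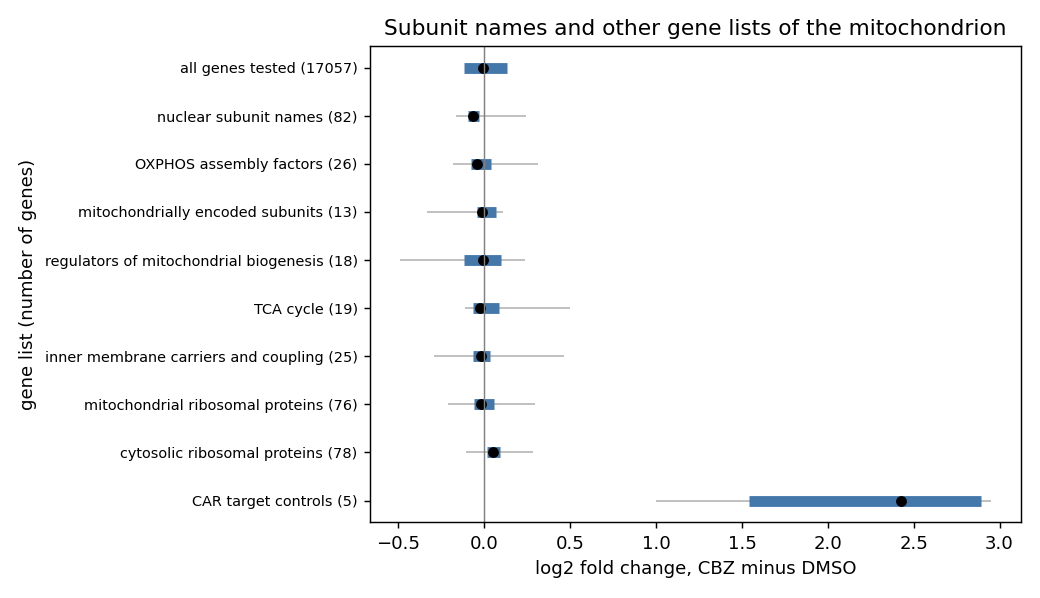
Log2 fold change (CBZ minus DMSO, x axis) of gene lists, with black points for medians, blue bars from the lower to the upper quartile and grey lines from lowest to highest (no grey line for all genes). The 82 subunit names have the lowest median (-0.067), and the medians of all lists except the 5 drug-response controls lie between it and 0.049.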

How the data were processed

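RNA of 6 whole livers was analysed on 1 array each, in 2 groups of 3 mice named by the labels. The Cy3-labelled material came from 100 ng of total RNA, per the labels' protocols. The scanner software of the authors was Agilent Feature Extraction 10.7.3.1, per the file headers, and each deposited processed intensity is background-subtracted and detrended within its array. The deposited table of the authors' values is a ratio of each processed intensity to the array median, as a comparison with the scanner files showed, and served as an alternative. Control spots and outlier spots (114 to 126 per array) were left out. The log2 processed intensity minus the array's 75th percentile was averaged over spots of a probe. Probes well above background on all 3 arrays of a group were kept (22352 of 55681), and a gene was read from its brightest probe.

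The groups were compared with limma 3.58.1 (lmFit and eBayes, two-sided, R 4.3.3), with Benjamini-Hochberg adjustment over all kept probes, a threshold of 0.05 and 95% confidence intervals. Fold changes are log2, CBZ minus DMSO, ± SE. The labels do not say how the mice were housed or processed apart, so the p-values measure the spread between these samples. Tested on simulated data for this comparison (22352 probes, 5 runs), the fit called 58.4% of probes changed 2-fold and 91.4% of those changed 4-fold, and 4.19% of calls were on unchanged probes. The simulated noise was independent between probes, while many genes on the real arrays shared differences between mice. These shares may therefore not hold for the real arrays. Of 128 probes with a matching name, 119 met the detection rule, and 1 of these, of Atp5l, was lost to an outlier spot. Named genes were all called ones, the highest and lowest estimates of each complex, the largest and smallest SDs, the probe sets that differed most, core subunits and isoforms; others were named for a count after their values were seen. Members and lists were chosen with earlier results of these data known. Probe positions come from the array design (mm9), and promoters are those of RefSeq GRCm38.p6, where 77 genes matched by accession and 5 by symbol. The same-numbered mice of both groups did not deviate together (r between -0.24 and 0.18), so the numbers were not taken as pairs.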

Additional observations from a re-analysis of the deposited data

How the results depend on the processing

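No subunit gene was called under any of the alternatives run, and of the 41 subunit genes named by rule none passed the threshold under any. Over all genes, 9 calls became 102 with normexp, 89 with median scaling or the authors' table, 134 with an intensity trend and robust fit, 30 with a filter on all 6 arrays, 14 with every probe on its own, 42 at an adjusted p under 0.10, 4 with quantile normalisation or the slide row, 3 with cyclic loess, detected spots or the subunit median, 5 without scaling and 0 without a filter (1603 genes at an unadjusted p under 0.05). Leaving out 1 mouse gave 0 to 21. The replicate block, for numbers that do not pair the mice, gave 7 calls, 0 of them subunits, and changed no call of a subunit. Subunit genes whose groups do not overlap went from 0 to 1 with normexp, 11 with quantile normalisation, 12 with cyclic loess, 6 with detected spots, 7 with the subunit median and 9 without scaling. The shares of all genes above and below were 6.19% and 6.40% with normexp, 8.26% and 9.39% with quantile normalisation and 8.89% and 8.64% with cyclic loess. They were 8.3% and 7.43% with detected spots, 8.88% and 5.04% with the subunit median and 5.77% and 6.11% without scaling. With median scaling or the authors' table, which share a variance over all probes, the median log2 fold change was -0.17 for the subunits, -0.14 for complex V and -0.11 for the mitochondrially encoded subunits; the slide row brought the last to -0.14. Leaving out 1 mouse moved the median of the subunits between -0.13 and -0.0068. Scaling to the subunit median and leaving out scaling were added after the data had been seen. The cause of these shifts was not tested.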
